A study of Mus musculus with 20 samples.

Results

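Running was compared between genotypes in mouse knee articular cartilage: the effect of treadmill running in Dio2-/- mice was set against its effect in wild-type mice, over all 20 of the 20 pools of the series. Each pool held cartilage of 2 male mice on a C57Bl/6 background, aged 4 to 6 months, and gave 1 Illumina MouseWG-6 v2 array. The 4 groups were Dio2-/- Run (6 pools), Dio2-/- NoRun (3 pools), wild-type Run (8 pools) and wild-type NoRun (3 pools). Run mice were on a treadmill for 3 weeks, 5 days a week, 1 hour a day, at 11 m/min and an incline of 5 degrees, and NoRun mice were not run. Dio2-/- mice came from the 6th backcross generation and lack the gene in every tissue, not in cartilage alone. The study's text gives the wild-type mice both as purchased animals and as littermates, and which of these holds for the pools was not settled here.

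Dio2 encodes type 2 deiodinase, which converts the prohormone thyroxine into the active thyroid hormone triiodothyronine inside the cell. In cartilage, active thyroid hormone drives chondrocytes towards hypertrophy, the terminal maturation that turns growth cartilage into bone, and the gene is known from genetic studies of osteoarthritis. Mechanical load is the other large input to articular chondrocytes, which adjust the collagens and proteoglycans of their matrix to it.

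For each of 23148 probes of 45281 (those with a detection P below 0.05 on at least 3 of the 20 arrays) 3 differences of log2 intensity were taken: Run minus NoRun in Dio2-/- mice, Run minus NoRun in wild-type mice, and the first minus the second, called the difference in response here. A positive difference in response means that running raised a probe more, or lowered it less, in Dio2-/- than in wild-type cartilage. P-values are from limma, fitted over the 4 groups with Benjamini-Hochberg adjustment across the whole set of tested probes, and they measure the spread between pools. In pooled tissue, fewer cells of a type and less RNA per cell cannot be told apart.

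The targeted gene gave no check of the labels. The Dio2 probe had 4.95, 5.95 and 6.16 (lowest, median and highest log2 intensity) in Dio2-/- Run pools and 6.67, 5.77 and 6.19 in Dio2-/- NoRun pools. It had 4.95, 5.29 and 5.73 in wild-type Run pools and 5.50, 5.44 and 4.99 in wild-type NoRun pools. The signal lay near background, above it on 4 of 6, 3 of 3, 2 of 8 and 0 of 3 arrays in that order of groups, and it was not lower in the mice that lack the gene.

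The arrays had 18469 to 21386 probes above background and median intensities of 162.3 to 223 before normalization. The wild-type NoRun arrays had the highest median intensities, 207.5 to 223, and no array of another group was above 203. The lowest count of probes was on a Dio2-/- NoRun array, and in the other groups the lowest was 19347. The part of these differences in the running responses was not tested. The labelled tissue was present in all pools, since the 18 measured cartilage matrix genes averaged 9.17 to 10.40 on the log2 scale. Other tissues were present as well. The 23 fast muscle genes averaged 12.41 to 14.08 in every pool, and the 18 neutrophil genes 14.03 to 14.33 in the pools other than Dio2-/- NoRun 16 and Dio2-/- Run 24 and 25. On the neutrophil list, pool 16 was at 11.87, pool 24 at 13.03 and pool 25 at 13.98. The same 2 pools, 16 and 24, were lowest on the list of T and NK cell genes, at 6.66 and 7.63, with all others between 8.35 and 8.99. Both were also highest on the cartilage matrix list (10.40 and 10.29) and on the muscle list (14.07 and 14.08). Results that turn on these pools are therefore given with and without pools 16 and 24. All 3 Dio2-/- NoRun pools were alone on 1 of the 6 chips, so the level of that group and its chip cannot be told apart, and no chip held Run and NoRun pools of 1 genotype. All 3 wild-type NoRun pools were on 1 chip as well. Run minus NoRun was therefore also a comparison of chips in both genotypes, and every running response below carries this limit.

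The wild-type running response served first as a ruler for the Dio2-/- pools. Fitted alone, the 11 wild-type arrays gave 390 probes that differed between Run and NoRun at an adjusted P below 0.05, 179 of them higher in Run. Each pool was placed on these probes with 0 at the wild-type Run mean and 1 at the wild-type NoRun mean, and the median over the probes was taken. Dio2-/- Run pools 25, 32, 33, 34 and 35 lay at 0.09, -0.13, -0.06, -0.16 and -0.31, and pool 24 lay at 0.60. The Dio2-/- NoRun pools 17 and 19 lay at 0.16 and 0.40, and pool 16 at 1.29. Wild-type pools, each placed on probes called without it, lay at -0.03 to 0.38 for Run and at 0.61 to 1.05 for NoRun. The ruler itself rests on 3 wild-type NoRun pools: without pool 12, 14 or 15 it held 14, 181 or 38 probes. Pool 24 then lay at 0.07, 0.63 and 0.13, pool 19 at -0.04, 0.30 and 0.11, pool 17 at -0.13, 0.17 and -0.12, and pool 16 at 0.92, 1.32 and 0.95. On the 42 probes that differed at least 2-fold, pool 24 was at 0.30, pool 19 at 0.20, pool 17 at 0.13 and pool 16 at 1.19. Pool 16 thus stayed near or past the wild-type NoRun mean, while the place of pools 24 and 19 moved with the probes used.

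The 3 Dio2-/- NoRun pools therefore did not lie together. Pool 16 was nearer the wild-type NoRun mean on 302 of the 390 probes (77.4%), pool 19 on 163 (41.8%) and pool 17 on 83 (21.3%). Pools 17 and 19 thus lay on the wild-type Run side of this scale on most probes, although they were labelled NoRun. The labels were kept as given. Among the Dio2-/- Run pools, 24 was nearer wild-type NoRun on 216 probes (55.4%), and the others on 18 to 41 probes. Pool 35, the Dio2-/- Run pool farthest from wild-type NoRun, was hybridised on the same chip as all 3 wild-type NoRun pools.

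**Figure D1:**
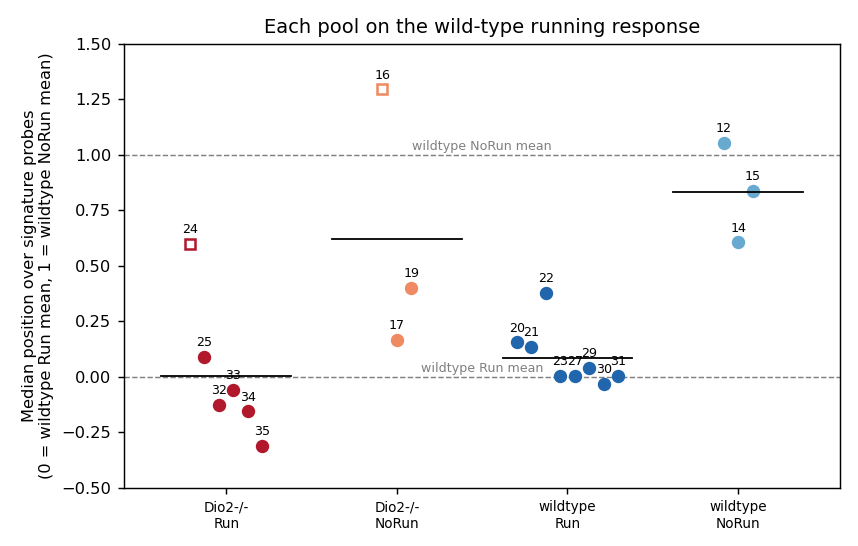
Median position of each pool (numbers are replicate numbers) over probes of the wild-type running response. The wild-type Run mean is 0 and the wild-type NoRun mean is 1. Dio2-/- pools are placed on the 390 probes, and each wild-type pool on probes and means taken without it. Black lines are group means and open squares are Dio2-/- pools 16 and 24. Dio2-/- NoRun pools 17 and 19 sit at 0.16 and 0.40, below every wild-type NoRun pool on its own probes, and pool 16 sits at 1.29.

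Over all 20 pools, no probe passed an adjusted P of 0.05 for the difference in response (0% of probes). At an unadjusted P below 0.05 there were 1187 probes (5.13%), 610 positive (2.64%) and 577 negative (2.49%). Below 0.01 there were 240 (1.04%), 134 positive (0.579%) and 106 negative (0.458%). Where no difference exists, a threshold on P passes its own share of probes, and both shares were near that. Without pools 16 and 24, 13 probes passed the adjusted threshold (0.0562%), 12 positive (0.0518%) and 1 negative (0.00432%). At an unadjusted P below 0.05 there were then 1766 (7.63%), and below 0.01 there were 440 (1.9%). The median standard error of the difference in response was 0.27 on the log2 scale. Leaving out pool 16 alone gave 11 calls, all 11 among those 13, while leaving out pool 24 alone gave 0.

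Run and NoRun differed at an adjusted P below 0.05 on 31 probes in Dio2-/- cartilage (0.134%), 14 higher (0.0605%) and 17 lower (0.0734%) in Run. In wild-type cartilage they differed on 45 (0.194%), 16 higher (0.0691%) and 29 lower (0.125%). Without pools 16 and 24 these counts were 214 (0.924%) in Dio2-/- and 905 (3.91%) in wild-type cartilage. The wild-type count moved although its arrays were the same, since all groups share 1 normalization and 1 estimate of the spread. Leaving out pool 24 alone gave 2547 probes in Dio2-/- cartilage, and leaving out pool 16 alone gave 1. With chip as a fixed block, 8 probes passed in wild-type cartilage. No chip held wild-type Run and NoRun pools together. That fit therefore reached the wild-type comparison only through the Dio2-/- Run pools that shared chips 4 and 6 with wild-type pools, pool 24 among them. Across the 23148 probes the response in Dio2-/- and that in wild-type cartilage had a Pearson correlation of 0.569 and the same sign on 68.5% of probes, and 0.468 and 64.7% without pools 16 and 24. This is a description across probes, which are not independent replicates and which share the normalization and the array design.

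Probes were sorted by their unadjusted P in the 3 comparisons. A response was called shared where both genotypes passed 0.05 in the same direction, opposed where they passed in opposite directions, and particular to 1 genotype where that genotype passed, the other did not and the difference in response passed as well. There were 997 shared probes (4.31%), 577 higher (2.49%) and 420 lower (1.81%) in Run. There were 16 opposed probes (0.0691%), 12 of them higher in Dio2-/- Run (0.0518%) and 4 lower (0.0173%). There were 590 of Dio2-/- alone (2.55%), 259 higher (1.12%) and 331 lower (1.43%), and 364 of wild-type alone (1.57%), 137 higher (0.592%) and 227 lower (0.981%). Both of these classes need an unadjusted P below 0.05 in the difference in response. Over all pools 5.13% of probes reached that, about the share that this threshold passes with no difference. For another 4518 probes (19.5%) 1 genotype passed but the difference did not, so that neither label applies, and 16663 (72%) passed in neither genotype.

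Without pools 16 and 24 the shared class held 1349 probes (5.83%), 854 higher (3.69%) and 495 lower (2.14%). The opposed class held 51 (0.22%), 35 higher in Dio2-/- Run (0.151%) and 16 lower (0.0691%). The Dio2-/- class held 705 (3.05%; 337 higher, 1.46%, and 368 lower, 1.59%) and the wild-type class 700 (3.02%; 266 higher, 1.15%, and 434 lower, 1.87%). Of the 577 probes that were shared and higher, 389 kept their class and direction, as did 241 of the 420 that were shared and lower. Of the Dio2-/- class 129 of 259 higher and 178 of 331 lower probes were kept. Of the wild-type class 84 of 137 higher and 159 of 227 lower probes were kept, and of the 16 opposed probes 7.

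**Figure D2:**
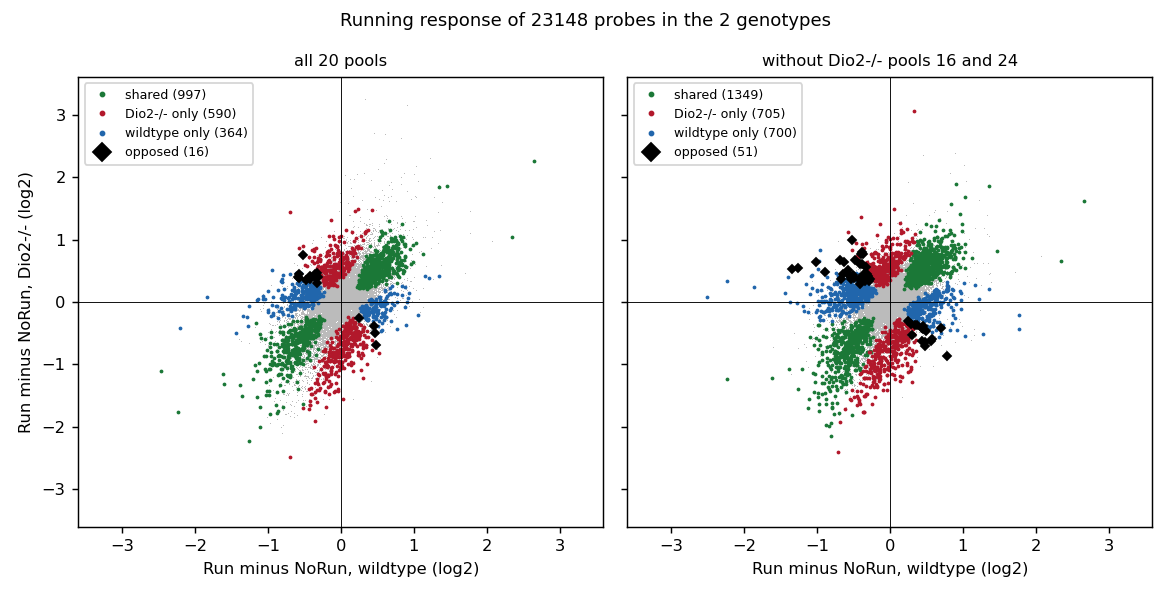
Run minus NoRun in Dio2-/- (vertical, log2) against Run minus NoRun in wild-type cartilage (horizontal, log2) for each of 23148 probes, coloured by class, over all 20 pools (left) and without Dio2-/- pools 16 and 24 (right). Shared probes (997 on the left, 1349 on the right) fill the quadrants of equal sign, and opposed probes (16 and 51) are few.

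Gins1, a subunit of the GINS complex, which is part of the helicase at the replication fork, had the smallest P of all probes in wild-type cartilage. It had 10.18, 10.92 and 11.22 (lowest, median, highest) in Dio2-/- Run pools and 8.79, 10.38 and 10.29 in Dio2-/- NoRun pools 16, 17 and 19. It had 10.18, 10.87 and 11.02 in wild-type Run pools and 8.42, 8.50 and 8.46 in wild-type NoRun pools. Wild-type Run and NoRun pools did not overlap, while Dio2-/- NoRun pools 17 and 19 lay within the range of the Run pools and only pool 16 lay near wild-type NoRun. Gins1 was higher by 2.35 ± 0.27 (log2 difference ± SE, 5.09-fold, adjusted P = 0.000619) in wild-type Run, and by 1.04 ± 0.28 in Dio2-/- Run (adjusted P = 0.0804). The difference in response was -1.31 ± 0.38 (adjusted P = 0.929) over all pools and -1.69 ± 0.23 (adjusted P = 0.00411) without pools 16 and 24. It was the 1 negative among the 13 calls.

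Of the 12 positive calls, 9 split the Dio2-/- NoRun pools as Gins1 did, with pool 16 nearer the wild-type NoRun mean and pools 17 and 19 nearer the wild-type Run mean. Gsk3a encodes glycogen synthase kinase 3 alpha, a kinase of glycogen metabolism and Wnt signalling. Its probe had 7.15, 7.41 and 7.49 (lowest, median, highest) in Dio2-/- Run pools and 8.67, 6.99 and 6.62 in Dio2-/- NoRun pools 16, 17 and 19, against 7.003, 7.28 and 7.67 in wild-type Run and 8.72, 8.37 and 8.60 in wild-type NoRun pools. Pool 16 was thus at the level of wild-type NoRun, and pools 17 and 19 were below every Run pool of either genotype. The difference in response was 1.19 ± 0.39 over all pools (adjusted P = 0.929) and 1.81 ± 0.22 without pools 16 and 24 (adjusted P = 0.00172).

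Rps23rg1, a retrotransposed copy of a ribosomal protein gene whose signal may not be separable from that of its parent, also had pool 16 apart from pools 17 and 19. It stood at 8.89 in Dio2-/- NoRun pool 16 and at 4.94 and 5.32 in pools 17 and 19, against 7.84, 7.34 and 8.03 in wild-type NoRun pools. In Run pools it ranged from 4.97 to 5.58 in Dio2-/- and from 4.88 to 5.94 in wild-type cartilage, where it was above background on 0 of 6 and 1 of 8 arrays. Among the Dio2-/- NoRun arrays it was above background on 1 of 3, so that the size of a difference in response cannot be read from it, with an adjusted P of 0.00127 without pools 16 and 24 and 0.956 with them. Phospho1, the phosphatase with which chondrocytes and osteoblasts start matrix mineralization, had 11.14, 8.67 and 9.33 in Dio2-/- NoRun pools 16, 17 and 19, against 11.04, 10.91 and 10.74 in wild-type NoRun pools. Its Run pools ranged from 8.72 to 9.78 in Dio2-/- and from 9.32 to 9.88 in wild-type cartilage, and the difference without pools 16 and 24 was 1.87 ± 0.32 (adjusted P = 0.0357).

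Over the 13 probes, pool 16 was nearer the wild-type NoRun mean on 10 and pools 17 and 19 on 0. The calls made without pool 16 thus rest on NoRun pools 17 and 19, both nearer the wild-type Run mean on all 13 probes. The place of pools 17 and 19 is largely built in, since the probes were called for a difference that these pools carry. Several calls also rested on 1 probe of a gene with others. For Ctnnb1, which encodes beta-catenin, the called probe had a difference of 1.79 ± 0.31 without pools 16 and 24 (adjusted P = 0.0367), and its 3 other probes had -0.45, -0.27 and -0.55. Ces2g, a carboxylesterase, had 1.66 ± 0.26 (adjusted P = 0.0142) on the called probe and -0.18 on the other. Them6, a thioesterase superfamily member, had 1.60 ± 0.25 (adjusted P = 0.0142) on the called probe and -0.21 and 0.74 on others. Pgrmc2, a haem-binding membrane protein, had 1.35 ± 0.17 (adjusted P = 0.00195), with 0.40 and 0.57 on its 2 other probes. The other probes thus had the sign of the called probe for Pgrmc2, had both signs for Them6, and had the opposite sign for Ctnnb1 and Ces2g. The remaining calls were Ppt2, Nkx6-2 and Anxa11, described below, and 2 probes with no gene name, ILMN_1218559 (1.18 ± 0.21, adjusted P = 0.0445) and ILMN_2441724 (adjusted P = 0.00127). ILMN_2441724 was above background on 1 of 6 Dio2-/- Run, 1 of 3 Dio2-/- NoRun and 2 of 8 wild-type Run arrays, so no size is given for it.

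**Figure D3:**
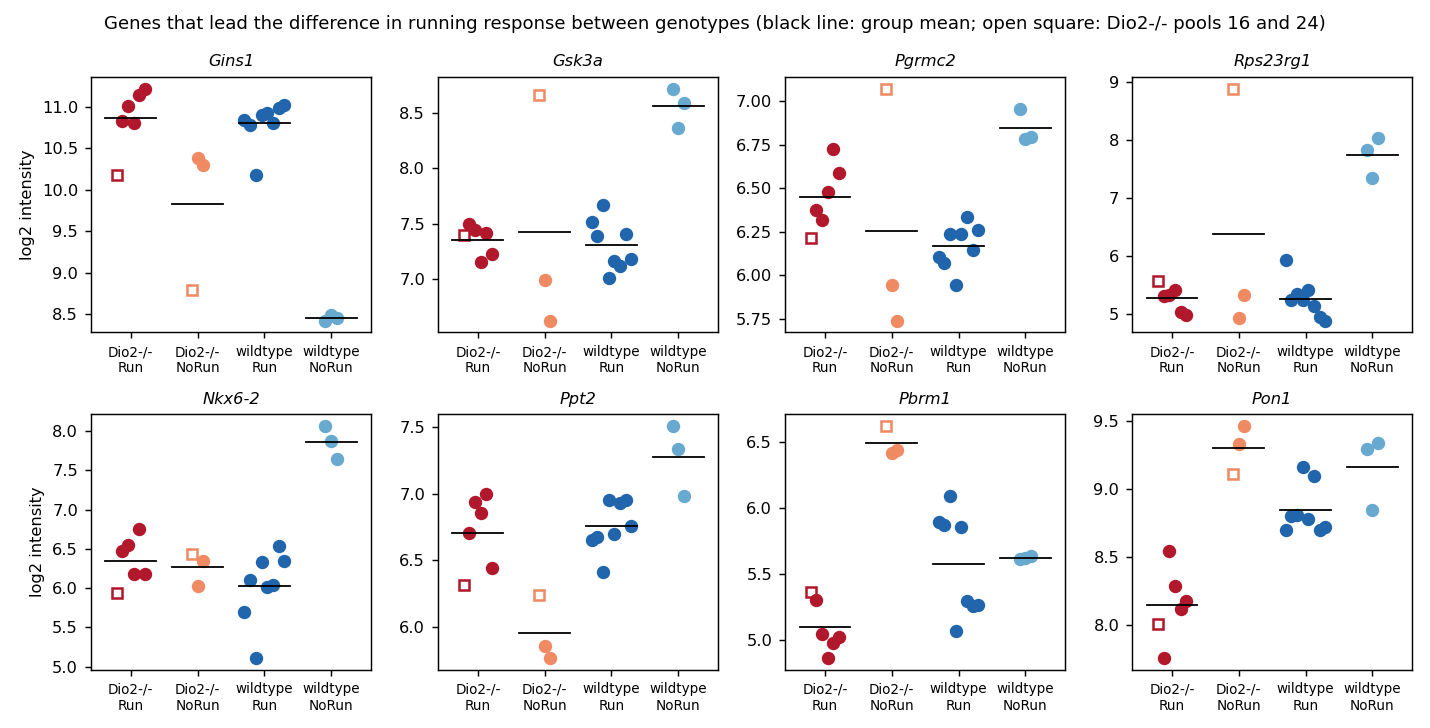
Log2 intensity of 8 genes in each pool, by group, with group means as black lines and Dio2-/- pools 16 and 24 as open squares. In Gins1, Gsk3a, Pgrmc2 and Rps23rg1 the Dio2-/- NoRun pools split into pool 16, on the side of wild-type NoRun, and pools 17 and 19, on the other; in Nkx6-2, Ppt2, Pbrm1 and Pon1 pool 16 lies with or near pools 17 and 19.

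Of the probes lower with running in wild-type cartilage alone, that of Nkx6-2, a homeobox transcription factor known from oligodendrocytes and neural progenitors, had the smallest P of the difference in response. It had 5.94, 6.33 and 6.75 (lowest, median, highest) in Dio2-/- Run pools and 6.43, 6.02 and 6.35 in Dio2-/- NoRun pools. In wild-type cartilage it had 5.11, 6.07 and 6.54 in Run pools and 8.07, 7.87 and 7.64 in NoRun pools. The 3 wild-type NoRun pools were above all 17 others, and the Dio2-/- groups overlapped. It stood at 0.07 ± 0.24 in Dio2-/- Run, against -1.84 ± 0.23 in wild-type Run (3.58-fold lower, adjusted P = 0.00156), and the difference in response was 1.91 ± 0.33 (adjusted P = 0.315), or 2.10 ± 0.37 without pools 16 and 24 (adjusted P = 0.0367).

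Anxa11, a calcium-dependent membrane-binding annexin, went the same way. It had 7.67, 8.18 and 8.47 in Dio2-/- Run and 8.37, 7.82 and 7.95 in Dio2-/- NoRun pools, against 7.98, 8.28 and 8.54 in wild-type Run and 9.65, 9.29 and 9.32 in wild-type NoRun pools. It stood at 0.03 ± 0.18 in Dio2-/- Run, against -1.15 ± 0.17 in wild-type Run (adjusted P = 0.00869), and the difference in response was 1.18 ± 0.25 (adjusted P = 0.542). Another Anxa11 probe had a difference of 0.30 ± 0.16. Its wild-type NoRun pools, like those of Nkx6-2, were above every other pool.

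Kmt5a, which encodes the histone H4 lysine methyltransferase SET8, was among the genes that were higher with running in wild-type cartilage alone. It had 10.68, 10.83 and 10.96 in Dio2-/- Run and 10.70, 11.06 and 10.71 in Dio2-/- NoRun pools, against 10.40, 10.97 and 11.18 in wild-type Run and 9.82, 9.89 and 10.25 in wild-type NoRun pools. It was higher by 0.91 ± 0.14 in wild-type Run (adjusted P = 0.0106) and the difference in response was -0.91 ± 0.21 (adjusted P = 0.542), while its 3 other probes had differences between -0.40 and -0.03. Smpd4, a neutral sphingomyelinase, had a difference in response of -0.99 ± 0.22 and Cenpb, a centromere protein, of -0.76 ± 0.22, and both adjusted P-values missed the threshold (0.542 and 0.929). In Kmt5a and Cenpb, as in Nkx6-2 and Anxa11, the wild-type NoRun pools lay apart from all others, while in Smpd4 they overlapped with Dio2-/- Run pools.

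Pon1 was among the genes of the class lower in Dio2-/- cartilage alone. It encodes paraoxonase 1, an esterase that liver secretes onto high-density lipoprotein. It had 7.76, 8.15 and 8.54 in Dio2-/- Run and 9.11, 9.33 and 9.46 in Dio2-/- NoRun pools, against 8.70, 8.79 and 9.17 in wild-type Run and 9.29, 8.85 and 9.34 in wild-type NoRun pools. All 6 Dio2-/- Run pools were below all 14 others. It stood at -1.15 ± 0.16 in Dio2-/- Run (2.22-fold lower, adjusted P = 0.00899), against -0.31 ± 0.15 in wild-type Run (adjusted P = 0.399). The difference in response was -0.84 ± 0.22 (adjusted P = 0.891), so a difference between genotypes was not established.

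Pbrm1, a bromodomain subunit of the PBAF chromatin remodelling complex, stood lower in Dio2-/- Run on 1 probe. That probe had 4.86, 5.04 and 5.36 in Dio2-/- Run pools, above background on 0 of 6 arrays, and 6.62, 6.41 and 6.44 in Dio2-/- NoRun pools. It was at least 1.76-fold lower in Dio2-/- Run (adjusted P = 0.00899), in wild-type cartilage it had 5.07, 5.58 and 6.09 in Run and 5.61, 5.62 and 5.63 in NoRun pools, and 4 other Pbrm1 probes changed by -0.97, -0.36, 1.01 and -0.12 in Dio2-/- Run. The probes of this gene therefore gave no single direction. "At least" means that the dim group was set to the lowest signal that counts as above background on its arrays.

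Slc5a3, the sodium-dependent myo-inositol carrier that cells use as an osmolyte transporter, had 4.90, 5.04 and 5.81 in Dio2-/- Run and 6.70, 6.19 and 6.16 in Dio2-/- NoRun pools (-1.18 ± 0.19, adjusted P = 0.0239). Its probe was above background on no wild-type array. In Dio2-/- Run, pool 24 held the value of 5.81 and the next pool was at 5.20. The lowest signal that counts as above background averaged 5.679 in that group, so -1.18 is no size of a change. Slc7a10, an amino acid transporter found in adipocytes and astrocytes, had 5.80, 6.23 and 7.21 in Dio2-/- Run and 8.36, 7.30 and 7.59 in Dio2-/- NoRun pools (-1.43 ± 0.27, adjusted P = 0.0455), against -0.08 ± 0.26 in wild-type Run. Ifi27l2a, an interferon-induced mitochondrial protein, fell short of the threshold at -0.86 ± 0.17 in Dio2-/- Run (adjusted P = 0.0511), and stood at 0.11 ± 0.17 in wild-type Run. The Per3 probe of this class, for a clock gene of the period family, was at least 1.84-fold lower in Dio2-/- Run (adjusted P = 0.0239) and a second Per3 probe stood at 0.16.

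In the other direction, St6galnac6, a sialyltransferase that builds gangliosides, had 6.06, 6.51 and 6.58 in Dio2-/- Run and 5.51, 5.74 and 5.401 in Dio2-/- NoRun pools, against 5.98, 6.27 and 6.48 in wild-type Run and 6.37, 6.03 and 6.47 in wild-type NoRun pools. All 3 Dio2-/- NoRun pools were below all 17 others, and the gene was higher by 0.88 ± 0.15 in Dio2-/- Run (adjusted P = 0.0239). The NoRun signals lay near the lowest that counts as above background there, 5.65 on average, so the size of 0.88 is uncertain. A second St6galnac6 probe gave 0.72 ± 0.17 (adjusted P = 0.0665). Pitpnc1, a phosphatidylinositol transfer protein, was at 1.00 ± 0.22 in Dio2-/- Run (adjusted P = 0.0521) and at -0.10 ± 0.21 in wild-type Run. Of the differences in response of these genes none passed the adjusted threshold, with or without pools 16 and 24.

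Opposed responses were few. Ppt2, a lysosomal thioesterase, was the leading one. It had 6.31, 6.78 and 7.002 in Dio2-/- Run and 6.24, 5.86 and 5.77 in Dio2-/- NoRun pools, against 6.41, 6.73 and 6.95 in wild-type Run and 7.51, 7.34 and 6.99 in wild-type NoRun pools. Within each genotype Run and NoRun pools did not overlap, and they lay in opposite order. The running response was 0.75 ± 0.17 in Dio2-/- (adjusted P = 0.0603) and -0.52 ± 0.16 in wild-type cartilage (adjusted P = 0.171). The difference in response of 1.27 ± 0.24 had an adjusted P of 0.336 over all pools and was 1.52 ± 0.23 without pools 16 and 24 (adjusted P = 0.0111). The other Ppt2 probe had 0.33 ± 0.21. Tenascin C (Tnc), an extracellular matrix glycoprotein of loaded and healing connective tissue, was in this class through a probe that was above background on 0 of 3 Dio2-/- NoRun arrays, so that no size is given for it, and its 4 other probes had differences in response of 0.39 to 0.94. Of the remaining opposed genes named by rule, Scfd2 and Nhsl1 were positive in Dio2-/- Run, with differences in response of 0.81 and 0.95, and Dctn4 and Rpl7l1 were negative, with -0.49 and -0.84. Olfr1260, Tor1aip2 and Syne3 were above background on no array of 1 NoRun group, and the bounds this leaves (at least 1.001-fold higher in Dio2-/- Run for Olfr1260, and at least 1.143-fold and 1.059-fold higher in wild-type Run for the other two) allow almost no change.

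Over all pools and without pools 16 and 24, shared responses were the largest of these classes. The classes of 1 genotype also need a pass in the difference in response, which 4518 probes missed over all pools. The order of sizes is therefore partly set by the rule. That order turned under 3 alternatives, with 541 shared and 679 of wild-type alone without pool 16, 423 shared and 768 of Dio2-/- alone without wild-type NoRun pool 15, and 2354 shared and 2700 of Dio2-/- alone with array weights. Apip, an enzyme of the methionine salvage pathway, had 9.25, 10.08 and 10.35 (lowest, median, highest) in Dio2-/- Run and 8.83, 9.20 and 9.30 in Dio2-/- NoRun pools, against 9.61, 9.97 and 10.20 in wild-type Run and 9.21, 9.28 and 8.79 in wild-type NoRun pools. The responses of 0.90 ± 0.20 in Dio2-/- and 0.88 ± 0.19 in wild-type cartilage (adjusted P = 0.0603 and 0.0614) differed by 0.02, with an interval of -0.57 to 0.60 (95%). Of the Dio2-/- Run pools pool 24 alone lay among the NoRun values. Rab7, the GTPase of late endosomes, stood at 0.93 ± 0.22 in Dio2-/- and 0.86 ± 0.21 in wild-type Run, and Gskip, an A-kinase anchoring protein, at 0.67 ± 0.17 and 0.65 ± 0.16. Acaa2, the mitochondrial thiolase of fatty acid oxidation, was higher by 0.84 ± 0.17 in Dio2-/- Run (adjusted P = 0.0482), against 0.63 ± 0.16 in wild-type Run (adjusted P = 0.0981). Toe1, a nuclear RNA exonuclease, was higher by 1.02 ± 0.18 in Dio2-/- Run (adjusted P = 0.0323), against 0.68 ± 0.17 in wild-type Run, and other Toe1 and Rab7 probes changed less.

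Of the 6 named shared genes that were lower with running, Purb stood lowest in both genotypes. It encodes a single-stranded DNA-binding repressor of muscle and matrix genes. The probe had 7.87, 8.12 and 9.003 in Dio2-/- Run and 10.04, 9.49 and 9.14 in Dio2-/- NoRun pools, against 8.10, 8.53 and 8.95 in wild-type Run and 10.03, 9.54 and 10.72 in wild-type NoRun pools. Run and NoRun pools did not overlap in either genotype, with differences of -1.31 ± 0.27 in Dio2-/- (adjusted P = 0.0511) and -1.61 ± 0.25 in wild-type cartilage (adjusted P = 0.0107). Another Purb probe stood at -0.10 in Dio2-/- and -0.05 in wild-type Run. Stk40, a pseudokinase, had -0.68 ± 0.16 in Dio2-/- and -0.67 ± 0.15 in wild-type Run, and Rasa1, a GTPase-activating protein of Ras, -0.999 ± 0.24 and -0.92 ± 0.23, none past the adjusted threshold. In all 3 genes pool 24 was the highest of the Dio2-/- Run pools and pool 16 the highest of the Dio2-/- NoRun pools. Leng8, Phf20l1 and Ythdf1, a reader of methylated adenosine in messenger RNA, had differences between -0.62 and -0.53 in both genotypes.

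**Figure D4:**
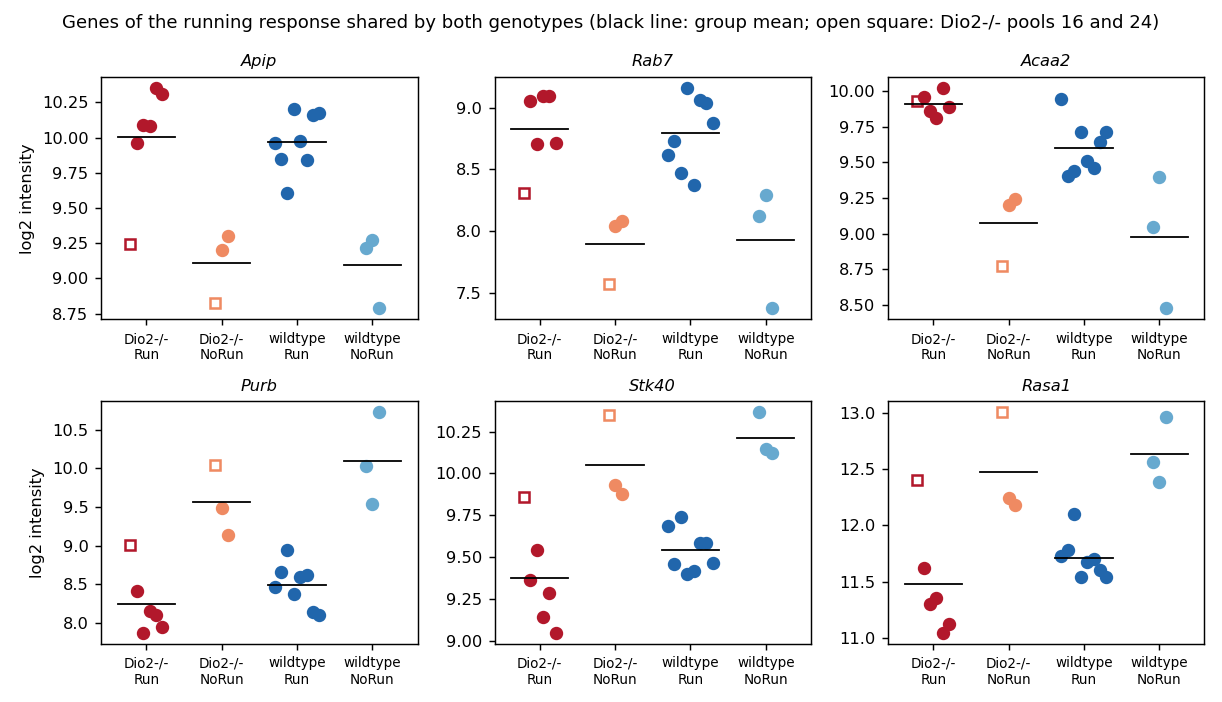
Log2 intensity in each pool of 3 genes that were higher (top) and 3 that were lower (bottom) with running in both genotypes, with group means as black lines and Dio2-/- pools 16 and 24 as open squares. Purb shows no overlap of Run and NoRun pools in either genotype, and in Apip pool 24 lies among the NoRun values at 9.25.

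Promoters of shared genes were read for 4 short motifs on both strands, since these genes had like responses in both genotypes. They are shown for the 3 shared genes whose window held one, from RefSeq on build GRCm38.p6, as 300 bases around the start of transcription, with the motif in capitals: TGACGTCA, the cAMP response element, for Purb (chr11:6476027-6476326, minus strand), and CACGTG, the E-box of clock and Myc family factors, for Ube2cbp, a ubiquitin ligase gene that was higher with running (chr9:86464867-86465166, minus strand), and Ythdf1, which was lower (chr2:180920887-180921186, minus strand).
Purb: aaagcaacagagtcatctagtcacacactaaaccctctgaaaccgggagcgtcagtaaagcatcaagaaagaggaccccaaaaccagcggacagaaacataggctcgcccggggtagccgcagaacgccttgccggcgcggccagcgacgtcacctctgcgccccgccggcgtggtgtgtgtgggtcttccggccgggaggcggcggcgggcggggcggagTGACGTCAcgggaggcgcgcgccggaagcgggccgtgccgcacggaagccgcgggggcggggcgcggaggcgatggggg
Ube2cbp: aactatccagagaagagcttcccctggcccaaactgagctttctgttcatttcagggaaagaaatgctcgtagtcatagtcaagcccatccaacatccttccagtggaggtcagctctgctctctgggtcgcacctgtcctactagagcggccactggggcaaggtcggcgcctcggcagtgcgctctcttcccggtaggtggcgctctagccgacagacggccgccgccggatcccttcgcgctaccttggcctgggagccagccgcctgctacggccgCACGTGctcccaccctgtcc
Ythdf1: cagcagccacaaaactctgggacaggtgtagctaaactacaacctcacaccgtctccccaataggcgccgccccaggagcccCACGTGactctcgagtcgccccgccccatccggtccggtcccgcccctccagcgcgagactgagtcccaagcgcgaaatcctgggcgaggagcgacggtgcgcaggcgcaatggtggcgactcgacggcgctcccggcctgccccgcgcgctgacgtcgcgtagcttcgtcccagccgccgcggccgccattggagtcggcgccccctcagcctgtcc

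CACGTG was in 2 of 12 windows of the named shared genes (16.7%) and in 7.15% of all 32851 windows, and TGACGTCA in 1 of 12 (8.33%) and in 1.79% of all. TTATGTAA, the D-box of Dbp and its relatives, and GAANNTTC, a core of the heat shock element, were in 0 of the 12. A match is a string of letters in a window, and the gene with a CACGTG that was higher and the one that was lower show that it went with no single direction here.

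The study followed Calr on these arrays, and its introduction names Calr, Hmgb2, Sox4 and Socs2 from an earlier report on running. For these genes the Run and NoRun labels were permuted within genotype in an exact two-sided test. For the difference in response this tests for no running effect in either genotype, not for equal effects. Calr, the calcium-binding chaperone calreticulin, had 9.24, 9.93 and 10.62 (lowest, median, highest) in Dio2-/- Run and 10.36, 9.81 and 9.95 in Dio2-/- NoRun pools, against 9.99, 10.84 and 10.95 in wild-type Run and 11.85, 11.34 and 11.21 in wild-type NoRun pools. It stood at -0.13 ± 0.25 in Dio2-/- Run (exact P = 0.679), against -0.76 ± 0.24 in wild-type Run (exact P = 0.00606, the smallest that 165 arrangements allow, and adjusted limma P = 0.17). Wild-type Run and NoRun pools did not overlap, and the Dio2-/- groups did. The difference in response was 0.63 ± 0.34 (exact P = 0.141), and 0.92 ± 0.33 without pools 16 and 24 (adjusted P = 0.55), where the Dio2-/- response turned to 0.17.

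Hmgb2, a chromatin protein of proliferating cells and of the cartilage surface zone, stood at 0.13 ± 0.19 in Dio2-/- Run (exact P = 0.524), against 0.69 ± 0.18 in wild-type Run (exact P = 0.00606). Sox4, a transcription factor of skeletal progenitors, stood on its bright probe at -0.58 ± 0.21 in Dio2-/- Run (exact P = 0.0595), against -1.09 ± 0.20 in wild-type Run (exact P = 0.00606, adjusted limma P = 0.0336). Socs2, the feedback inhibitor of growth hormone signalling, stood at -0.38 ± 0.16 (exact P = 0.0714), against -0.78 ± 0.15 (exact P = 0.00606, adjusted limma P = 0.0443). In each of these genes the response had the same sign in both genotypes and was smaller in Dio2-/- cartilage, and a dim Sox4 probe stood at -0.42 in Dio2-/- and -0.07 in wild-type Run. The differences in response, -0.56, 0.52 and 0.40, gave exact P-values of 0.103, 0.308 and 0.264, where 7.22e-05 is the smallest that the 13860 arrangements allow. These exact P-values cannot decide between equal and unequal running effects. No probe passed the adjusted limma threshold for the difference over all pools, so a genotype difference was not shown for any of them.

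Gene lists were read by counts and medians, beside the medians over all probes of 0.02 for the Dio2-/- response, 0.01 for the wild-type response and 0.01 for the difference. Over all probes, an unadjusted P below 0.05 was reached by 9.72% higher and 9.5% lower in Dio2-/- Run, and by 6.97% higher and 6.21% lower in wild-type Run. Adipocyte genes stood furthest apart. Of 10 measured, 9 were lower in Dio2-/- Run, 7 of them at an unadjusted P below 0.05, with a median of -0.85, while in wild-type Run the median was 0.03 and 0 passed in either direction. All 10 had a negative difference in response, 4 of them at an unadjusted P below 0.05 (against 2.49% of all probes), with a median of -0.71, and the same median was -0.71 without pools 16 and 24. None passed the adjusted threshold over all 20 pools.

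Cidec, a lipid droplet protein, had 8.54, 9.34 and 10.18 in Dio2-/- Run and 10.79, 10.21 and 10.63 in Dio2-/- NoRun pools, against 9.07, 9.70 and 10.17 in wild-type Run and 9.71, 9.74 and 10.40 in wild-type NoRun pools (Dio2-/- response -1.28 ± 0.30, adjusted P = 0.0648, and 0.0483 without pools 16 and 24). The hormone adiponectin (Adipoq) had 11.53, 12.07 and 12.48 in Dio2-/- Run and 12.69, 12.40 and 12.85 in Dio2-/- NoRun pools, against 12.09, 12.45 and 12.82 in wild-type Run and 11.96, 12.33 and 12.46 in wild-type NoRun pools, a difference in response of -0.77 ± 0.27. Plin4, a lipid droplet coat protein, stood at -0.97 ± 0.27 in Dio2-/- Run, and Fabp4, the fatty acid carrier, was at least 1.42-fold lower (adjusted P = 0.0586). In each of these 4 genes the highest of the 20 pools was a Dio2-/- NoRun pool. The list mean was 9.403 to 10.39 in Dio2-/- Run and 10.24 to 10.69 in Dio2-/- NoRun pools, against 9.50 to 10.19 in wild-type Run and 9.63 to 10.22 in wild-type NoRun pools. Pool 24 was the highest of the Dio2-/- Run pools, and the part of fat tissue in the dissected samples in this result was not tested.

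Stress and hormone-responsive lists also had lower medians in Dio2-/- than in wild-type Run. Of 13 glucocorticoid-induced genes 11 had a negative difference in response (median -0.38, and -0.56 with 13 of 13 negative without pools 16 and 24), and 2 of them passed an unadjusted P below 0.05. Zbtb16, a zinc finger factor, stood at -1.19 ± 0.32 in Dio2-/- and -0.18 ± 0.31 in wild-type Run, Mt2, a metallothionein, at -0.47 ± 0.30 and 0.43 ± 0.29, and Errfi1, a feedback inhibitor of the EGF receptor, at -0.32 ± 0.37 and 0.46 ± 0.35. Immediate early genes, the first transcripts after a stimulus, had medians of -0.08 in Dio2-/- (-0.13 without pools 16 and 24) and 0.44 in wild-type Run, and 9 of 11 had a negative difference. With single pools left out, the Dio2-/- median ran from -0.08 to 0.22 (highest without pool 19). The wild-type median ran from 0.10 (without wild-type NoRun pool 14) to 0.59. Jun stood at -0.08 ± 0.26 in Dio2-/- and at 0.56 ± 0.25 in wild-type Run. None of these genes passed the adjusted threshold in the difference.

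Heat shock genes had a median of -0.36 in Dio2-/- Run (11 of 13 lower, 3 at an unadjusted P below 0.05, and -0.34 without pools 16 and 24), against -0.15 in wild-type Run (10 of 13 lower, 0 at that threshold). The inducible chaperone Hspa1a stood at -1.33 ± 0.44 in Dio2-/- Run and at -0.37 ± 0.42 in wild-type Run, and Hsph1, its nucleotide exchange factor, at -0.71 ± 0.26 and 0.14 ± 0.25. Clock genes that peak with Dbp had medians of -0.53 in Dio2-/- (-0.55 without these pools) and -0.16 in wild-type Run, 8 of 10 lower in each. Nr1d2, a nuclear receptor of the clock, stood at -1.05 ± 0.44 in Dio2-/- and -0.80 ± 0.43 in wild-type Run, and Tef, a PAR bZIP factor, at -0.73 ± 0.35 and -0.03 ± 0.34. The time of day of dissection was not known here, and its part in these values was not tested.

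The matrix lists had negative medians in both genotypes. Cartilage matrix genes had medians of -0.27 in Dio2-/- Run (14 of 18 lower, 2 at an unadjusted P below 0.05) and -0.36 in wild-type Run (15 of 18 lower, 3 at that threshold). Without pools 16 and 24 the Dio2-/- median was -0.18 with 13 of 18 lower and 0 at that threshold, and leaving out pool 16 alone, which was highest on this list, gave -0.063. Type II collagen (Col2a1), the main fibril of cartilage, stood at -0.12 ± 0.39 in Dio2-/- and -1.11 ± 0.37 in wild-type Run, and aggrecan (Acan), its large proteoglycan, at -0.47 ± 0.24 and -0.60 ± 0.23. Fibrous collagen genes were lower in Run in 16 of 17 cases in Dio2-/- (median -0.30, and -0.22 with 15 of 17 lower without pools 16 and 24) and in 17 of 17 in wild-type cartilage (median -0.45). Col1a2 stood at -0.98 ± 0.43 and -1.13 ± 0.42, and Col3a1 at -1.11 ± 0.47 and -1.03 ± 0.45. None of the matrix genes passed an adjusted P of 0.05 in any of the comparisons, and fast muscle genes also had a negative median in wild-type Run (22 of 23 lower, median -0.26), with -0.08 in Dio2-/- Run and -0.02 there without pools 16 and 24.

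Wnt pathway genes had a median of -0.06 in Dio2-/- Run and -0.32 in wild-type Run, where 16 of 17 were lower and 1 passed an unadjusted P below 0.05. The Dio2-/- median turned to 0.10 with 10 of 17 higher without pools 16 and 24, and ran from -0.31 (without pool 17) to 0.02 (without pool 35) with single pools left out. The receptor Fzd7 stood at -0.01 ± 0.24 in Dio2-/- and -0.65 ± 0.23 in wild-type Run, and the ligand Wnt5a at -0.02 ± 0.24 and -0.45 ± 0.23. Cell cycle genes had a median of -0.05 in Dio2-/- Run, with 2 of 26 higher and 3 lower at an unadjusted P below 0.05, against 0.20 in wild-type Run, with 8 higher, Gins1 and Hmgb2 among them, and 2 lower. The Dio2-/- median turned to 0.05 without pools 16 and 24, with 6 higher and 1 lower, and wild-type Run had 9 higher and 2 lower. Birc5, the mitotic protein survivin, stood at 0.19 ± 0.12 in Dio2-/- and 0.43 ± 0.12 in wild-type Run, and Rrm1, a subunit of ribonucleotide reductase, at -0.27 ± 0.15 and -0.42 ± 0.14.

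Genes of apoptosis had differences in response in both directions. Bbc3, the p53 target PUMA, stood at 0.13 ± 0.17 in Dio2-/- and 0.77 ± 0.16 in wild-type Run, a difference of -0.64 ± 0.24. Bak1 and Bid, of the same BCL2 family, had differences of 0.65 ± 0.31 and 0.59 ± 0.24. The list medians were 0.05 in Dio2-/- (0.08 without pools 16 and 24) and -0.08 in wild-type Run. Among the chaperones of the endoplasmic reticulum, the medians were 0.06 in Dio2-/- and 0.10 in wild-type Run. The Dio2-/- median turned to -0.04 with 11 of 17 lower without pools 16 and 24, and in wild-type Run 3 members then passed the adjusted threshold higher and 1 lower. Sil1 stood at 0.14 ± 0.16 in Dio2-/- and 0.45 ± 0.15 in wild-type Run, and Ppib at 0.35 ± 0.19 and 0.49 ± 0.18.

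The mitochondrial ribosome, which nuclear genes encode, and the transcripts of the mitochondrial genome had medians of opposite sign in both genotypes. Mitochondrial ribosome genes had medians of 0.15 in Dio2-/- Run with and without pools 16 and 24 (over all pools 15 of 69 higher and 2 lower at an unadjusted P below 0.05) and 0.09 in wild-type Run (9 higher and 0 lower). Mrpl15 stood at 0.49 ± 0.13 in Dio2-/- and 0.25 ± 0.13 in wild-type Run. The respiratory chain list, of 26 measured genes, had medians of 0.15 in Dio2-/- and -0.0017 in wild-type Run. The 8 measured transcripts of the mitochondrial genome had medians of -0.99 in Dio2-/- and -0.51 in wild-type Run, 7 of 8 lower in each. The Dio2-/- median was -0.59 without pools 16 and 24, -0.37 without pool 16 alone and -1.42 without pool 17. COX2, a cytochrome oxidase subunit, had 10.18, 11.03 and 12.04 in Dio2-/- Run and 14.34, 11.66 and 12.64 in Dio2-/- NoRun pools, against 10.35, 11.16 and 12.91 in wild-type Run and 13.60, 13.58 and 13.70 in wild-type NoRun pools. ND1 stood at -1.15 ± 0.43 in Dio2-/- and -1.61 ± 0.42 in wild-type Run. In COX2, too, pool 16 was the highest Dio2-/- NoRun pool.

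Blood cell lists turned on the pools that stand apart. Neutrophil genes had a median of 0.53 in Dio2-/- Run, with 18 of 18 higher and 1 at an unadjusted P below 0.05, against 0.06 in wild-type Run. Without pools 16 and 24 that median was 0.00 with 9 of 18 higher. T and NK cell genes had medians of 0.71 in Dio2-/- and 0.24 in wild-type Run, and the Dio2-/- median was 0.24 as well without the 2 pools. Cd3d, a chain of the T cell receptor complex, stood at 1.36 ± 0.54 in Dio2-/- Run and at 0.40 ± 0.17 without pools 16 and 24. Ctsg, a neutrophil protease, stood at 0.98 ± 0.44 and at 0.30 ± 0.13 without them. B cell, monocyte and megakaryocyte lists had Dio2-/- medians of 0.44, 0.45 and 0.49, which were -0.32, 0.14 and -0.12 without these pools.

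Cholesterol synthesis genes had medians of 0.15 in Dio2-/- Run (0.26 without pools 16 and 24, 10 of 11 higher, 3 at an unadjusted P below 0.05) and 0.13 in wild-type Run. Nsdhl, a demethylation enzyme of that pathway, stood at 0.96 ± 0.26 in Dio2-/- Run (adjusted P = 0.0804, and 0.0226 without pools 16 and 24), against 0.39 ± 0.25 in wild-type Run. Mvk and Fdps stood at 0.59 ± 0.23 and 0.36 ± 0.17 in Dio2-/- Run. Genes of the IGF and growth hormone axis had medians of -0.21 in Dio2-/- (-0.13 without pools 16 and 24) and 0.05 in wild-type Run, and Igfbp5, an IGF-binding protein, had over all pools the same response in both genotypes within its error (-0.73 ± 0.26 in Dio2-/- and -0.73 ± 0.25 in wild-type Run). With single pools left out, the Igfbp5 response in Dio2-/- ran from -0.99 (without pool 17) to -0.35 (without pool 16). Thyroid hormone genes, the receptors, transporters and deiodinases of the hormone that Dio2 activates, had medians of -0.20 in Dio2-/- (-0.14 without these pools) and -0.05 in wild-type Run. Of 10 measured, 1 passed an unadjusted P below 0.05 in the difference in response, Rxra, the partner receptor of the thyroid hormone receptor, at 0.57 ± 0.24 (adjusted P = 0.956).

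**Figure D5:**
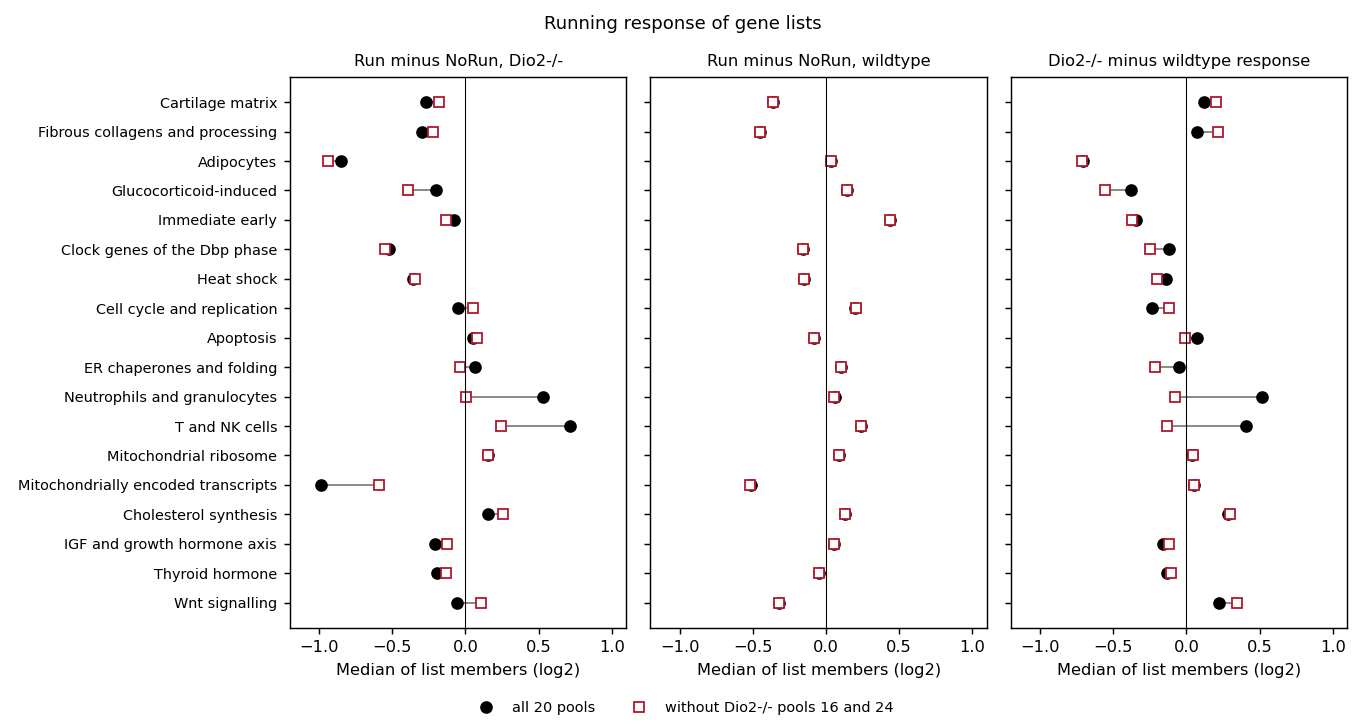
Median log2 difference over the measured members of 18 gene lists for Run minus NoRun in Dio2-/- (left), in wild-type (middle) and their difference (right), over all 20 pools (black circles) and without Dio2-/- pools 16 and 24 (open squares). Adipocyte genes keep a median difference of -0.71 in both, while neutrophil genes stand at 0.51 over all pools and at -0.08 without the 2.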

How the data were processed

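The submitters' processing notes name GenomeStudio, with no version given. The authors deposited a table of bead intensity values and detection p-values per array, not normalized, and a second table of normalized log2 values. Intensities were background-corrected and quantile-normalized with neqc of limma 3.58.1 (R 4.3.3; offset 16), using the detection p-values, and the deposited log2 values served as an alternative. The detection filter was P below 0.05 on at least 3 arrays. A 4-group linear model with empirical Bayes moderation gave the 3 comparisons, and exact permutation was used for single genes. The members and lists were chosen with earlier results of these data known, and named genes are those with the smallest P of each class plus those the study names, and of each list those with the smallest P. All 13 probes called without pools 16 and 24 are given, some of them beyond that rule, as chosen after their values were seen. A gene entered a list with its brightest tested probe. Gene symbols came from GEO's platform annotation: 34885 probes had 1 symbol, 18 several and 10378 none. Alternatives changed the background correction, normalization, filter, variance model, array weights, chip, covariates and pools. The fits were tested on simulated data of independent normal values. These held no chip effects and no pools that stand apart, so how the fits handle such features was not tested. The number of arrays, and for dim probes the background, limits the precision. The wild-type ruler and the list of mitochondrial transcripts were chosen after seeing the data.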

Additional observations from a re-analysis of the deposited data

Results flagged for a closer look

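In 23 of 248 checks of a group of 6 or 8 pools, over 124 genes and lists, 1 pool lay far from the others. A single check does so by chance in about 1 in 20 cases. The checks share pools, and lists share genes with single checks, so their number is no test of an excess. In 15 of the 23 the pool was Dio2-/- Run 24. Values are log2 intensity, with the nearest other pool after each. Pool 24 was the lowest of its group in Pfn1 (11.58, next 12.23), Zfp281 (8.82, 9.29), Apip (9.25, 9.96), Ppib (11.27, 11.99) and Nsdhl (5.93, 6.98). It was also lowest in the blood cell genes Ctsg (12.92, 14.24), Klrd1 (7.64, 8.64), Cd3e (6.82, 8.11) and Cd3d (8.13, 9.52), and on the neutrophil (13.03, 13.98), T and NK cell (7.63, 8.60) and apoptosis (9.20, 9.29) lists. It was the highest in Slc5a3 (5.81, 5.20), Jun (9.74, 9.12) and Igfbp5 (14.72, 13.93). Dio2-/- Run 35 was lowest in Bak1 (7.17, 7.76).

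Among wild-type Run pools, pool 22 was lowest in Gins1 (10.18, next 10.78) and highest in Rasa1 (12.10, 11.78) and Igfbp5 (14.29, 13.93). Pool 31 was lowest in Calr (9.99, 10.6) and pool 30 highest in Mt2 (7.95, 7.14). Pool 20 was highest on the heat shock (10.77, 10.39) and thyroid hormone (8.66, 8.39) lists. These patterns were not tested further.

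Without Dio2-/- pools 16 and 24, the running response differed between genotypes at an adjusted limma P below 0.05 for 13 probes. The differences in response were -1.69 for Gins1, 1.87 for Phospho1, 1.66 for Ces2g, 1.35 for Pgrmc2, 1.79 for Ctnnb1, 1.52 for Ppt2, 2.10 for Nkx6-2, 1.43 for Anxa11, 1.60 for Them6, 2.59 for Rps23rg1 and 1.81 for Gsk3a. The unnamed probes ILMN_2441724 and ILMN_1218559 had 2.56 and 1.18. The probes of Rps23rg1 and ILMN_2441724 were mostly below background outside the wild-type NoRun pools, so 2.59 and 2.56 are no sizes of a difference. Over all 20 pools 0 of the 13 passed in the main fit. Of the 13, Nkx6-2 passed over all pools with the authors' values (adjusted limma P = 0.0302), and Gins1 with muscle and neutrophil covariates (adjusted limma P = 0.0168). All 13 passed with array weights, whose fit did not converge.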

How the results depend on the processing

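Counts are in the order difference in response at an adjusted P below 0.05 (0 over all pools) and at an unadjusted P below 0.01 (240), running in Dio2-/- (31) and running in wild-type (45), then shared (997), opposed (16), Dio2-/- alone (590) and wild-type alone (364). Those within 1.5 times are left out. Without pools 16 and 24 the differences numbered 13 and 440, running 214 and 905, opposed 51 and wild-type alone 700. Array weights, whose fit did not converge, gave 827, 2096, 5881, 2071, 2354, 299, 2700 and 1260. Muscle and neutrophil covariates gave differences of 1 and 383, running 10 and 460, opposed 46 and wild-type alone 700. Chip as a random block gave 93 differences at P below 0.01, running 2 and 7, opposed 7, and 285 and 232 of 1 genotype. The authors' values gave 1 difference and running 8 and 177. Running was at 7 and 148 without background correction, 5 and 70 with cyclic loess, and 0 and 390 with each genotype alone. With chip fixed, a fit that reaches the wild-type comparison only through Dio2-/- Run pools, it was at 8 in wild-type. Detection on all 20 arrays gave 147 differences, running 14 and 95, opposed 7 and Dio2-/- alone 306. A stricter filter gave 8 opposed. No filter gave 521 differences, running 18 in Dio2-/-, opposed 68, and 1081 and 831 of 1 genotype.

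Leaving out each pool in turn gave 0 to 11 differences (144 to 435 at P below 0.01), 1 to 2547 for running in Dio2-/- (lowest without pool 16, highest without 24) and 3 to 233 in wild-type (lowest without wild-type NoRun 12, highest without 16). Shared ran from 423 (without wild-type NoRun 15) to 1713, opposed from 10 to 47, Dio2-/- alone from 377 to 1230 and wild-type alone from 240 to 679.

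With alternatives chosen after seeing the data, the authors' values without pools 16 and 24 gave 17 differences, 12 of them among the 13, and the chip block without them gave 6, all 6 among the 13. On the authors' values all 12 were smaller in size. Pgrmc2 had 0.26, Gsk3a 0.65, Nkx6-2 0.54 and Phospho1 1.37 there, against 1.35, 1.81, 2.10 and 1.87 above. The sizes therefore depend on the processing. Of 131 gene results 123 kept their sign under the alternatives run for each. Calr in Dio2-/- Run (-0.13) turned to 0.165 without both pools and to 0.0565 with array weights, and ran from -0.272 to 0.0301 with each pool left out (0.0053 without pool 24, highest without 16). The dim Sox4 probe turned in the difference (-0.35) to 0.103 without both pools, with -0.685 to 0.0554 over single pools, and in Dio2-/- Run (-0.42) to 0.0336 without both. In wild-type Run (-0.07) it ran from -0.207 to 0.0691 over single pools. Over single pools Ltf in Dio2-/- Run ran from -0.0092 (without 16) to 0.455 and the Pfn1 difference from -1.08 (without 16) to 0.0447 (without 17). Dio2 in wild-type Run (0.03) ran from -0.126 to 0.126, with -0.0823 under weights. With chip fixed, which leans on Dio2-/- Run pools, Dio2 in wild-type Run was at -0.244 and Sil1 in wild-type Run turned to -0.0886. No paired analysis was possible because no 2 groups share replicate numbers. The cause of these shifts was not tested.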
